A study of Arabidopsis thaliana with 34 samples.

Results

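Shoots of C13, an Arabidopsis line with Vitreoscilla haemoglobin (VHb, a bacterial oxygen carrier) in the cytosol, were compared with wild type (WT) shoots after 24 h of hypoxia. This comparison is 1 of the 34 deposited for the series and was taken from the single table column titled with these 2 groups. All 34558 probe rows of that column were used, of which 904 (2.62%) hold a value. Both lines have the Landsberg background, and the plants were 16 days old when the experiment began. They grew on agar plates with sucrose in short days, and hypoxia meant 4% oxygen in sealed bags inside the growth chamber, where they could photosynthesise. The groups used were C13 after 24 h of hypoxia and WT after 24 h of hypoxia, with the untreated C13 and WT controls of 24 h and 0 h. Side values came from C13 and WT after 2 h of hypoxia, from C13 and WT after 2 and 24 h with 500 µM of DETA, a nitric oxide donor, and from Mt62 after 24 h of hypoxia. Mt62 makes VHb in mitochondria. C13 is described as line 1:3, and neither the promoter that drives VHb nor further C13 lines are given in the sources used here, so that effects of VHb and of this line's own history cannot be told apart.

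By the sample descriptions each of the 2 groups had 4 channels, with 2 labelled with Alexa 488, 1 with Cy3 and 1 with HyPer5, on 4 slides each, 3 of which held both groups, though no field did. The design text calls the 4 channels biological replicates without stating whether they were separate cultures, so that the tests measure only the spread between these samples, which may be technical. No value per channel is in the table. A value is a log fold change, C13 minus WT, that the authors listed where their test gave p of at most 0.01, with no adjustment for the number of tests stated. With no difference in any row, that threshold would list about 346 rows. Values are given on the authors' log scale, whose base the sources used here do not name. All values below are from the authors' deposited table or are sums and differences of its columns. Where a standard error is given as "at most" a value, that bound follows from the smallest value listed for the row in any column. No probe for VHb itself is named, so the line labels could not be checked by the transgene.

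Plants short of oxygen turn from respiration to ethanol fermentation, with sucrose and starch as fuel, and raise a core of hypoxia genes through transcription factors that oxygen otherwise destabilises. Many also raise heat shock proteins, chaperones that hold unfolding proteins, and lower costly processes such as growth. VHb binds oxygen and can turn over nitric oxide, and its expression in plants has long been studied for tolerance of low oxygen.

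At the level of genes, 722 of 24515 named genes (2.95%) were listed, 361 higher and 361 lower in C13 than in WT (1.47% each), and no gene had rows of both signs. Most differences were small. The median of the higher genes was 0.58, with a range of 0.25 to 1.83, and that of the lower genes was -0.45, with a range of -1.61 to -0.20. A size of at least 1 was reached by 36 higher and 14 lower genes. Standard errors were at most 0.17 in the median of the listed rows. In whole shoots, fewer cells of a type and less RNA per cell cannot be told apart, and this holds for every value below.

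**Figure D1:**
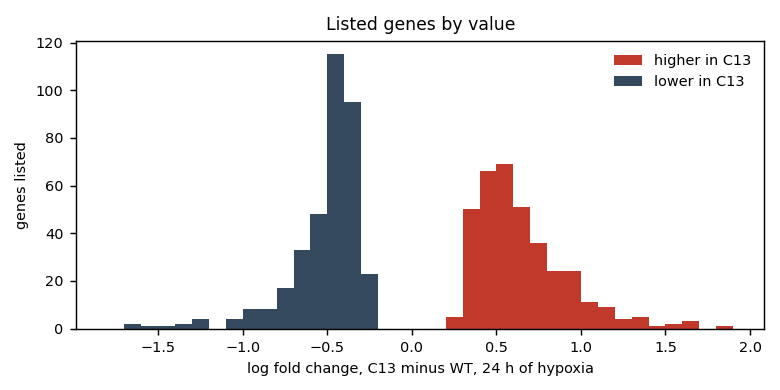
Number of genes (y axis) by listed log fold change, C13 minus WT at 24 h of hypoxia (x axis), in steps of 0.1; bars right of 0 are the 361 genes higher in C13 and bars left of 0 the 361 genes lower. The higher genes reach 1.83 and the lower ones -1.61, and the gap around 0 holds genes that were not listed.

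The genes that stood highest in C13 included a group that hypoxia raised in both lines. HSA32, a heat-stress-associated protein needed to keep acquired heat tolerance, was 1.62 higher in C13 (standard error at most 0.49). Its response to 24 h of hypoxia against the 24 h control was 4.39 in C13 and 2.52 in WT. HSP18.2, a small cytosolic heat shock protein, was 1.3 higher and responded by 4.21 in C13 and by 2.55 in WT. AT1G52560, AT1G72660, AT5G14730 and AT1G53180, which carry no name in the annotation used, were 1.25, 1.31, 1.51 and 1.54 higher. They also rose in both lines, AT1G52560 by 4.49 in C13 and 2.78 in WT and AT1G53180 by 2.99 in C13 and 1.33 in WT. LFG4 (AT1G03070), of the LIFEGUARD family of membrane proteins related to a cell death suppressor, was 1.23 higher, with responses of 3.52 in C13 and 1.956 in WT. RVE2, a MYB-type transcription factor of the circadian clock's family, was 1.33 higher, with responses of 3.00 in C13 and 1.61 in WT. In these 8 genes hypoxia raised the transcript in each line, and the C13 value was the larger. Their choice by C13 minus WT after hypoxia itself favours that order. The difference in response, tested further on, exceeded its threshold in HSA32, AT1G53180 and LFG4 and in none of the others.

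In another set a response was listed in C13 and not in WT. AHL28 (AT1G14490), an AT-hook nuclear protein, had the largest value of any named gene, 1.83 (standard error at most 0.51), with a response of 2.07 in C13 and none listed in WT. AT5G05220 was 1.67 higher, CYP81D11, a cytochrome P450 known to respond to oxylipins and foreign compounds, 1.47 and GSTU5, a tau class glutathione transferase, 1.32. Their responses in C13 were 2.68, 1.68 and 1.44, and none was listed in WT. SAUR13 (AT4G38825), an early auxin gene, was 1.23 higher with a response of 0.94 in C13. A response that is not listed in WT did not pass the authors' test there, which does not show that it was absent. AT1G13670 was 1.34 higher in C13, where no response was listed, and fell by 0.83 in WT. TBL26, of a family that acetylates cell wall polysaccharides, was 1.67 higher in C13 (standard error at most 0.28) with no response listed in either line.

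The genes that stood lowest in C13 were mostly genes that hypoxia raised in WT. They were chosen by C13 minus WT after hypoxia, which itself favours a larger rise in WT than in C13. AT4 (AT5G03545, also IPS2), a non-coding RNA induced by phosphate starvation, was 1.61 below WT, that is -1.61 (standard error at most 0.49). No response was listed in C13, against a rise of 2.93 in WT. MGDC (MGD3), which makes galactolipid when phospholipids are broken down in phosphate starvation, had a value of -1.56, and rose by 3.49 in C13 and 4.83 in WT. SQD2, which completes the synthesis of sulfolipid, another substitute for phospholipid, had -1.07 and rose by 0.97 in C13 and 1.67 in WT. AGL44 (ANR1), a MADS factor of the root's response to nitrate, had -1.21 and rose by 1.34 in C13 and 2.52 in WT. EXPA10, an expansin that loosens cell walls, had -1.24 and rose by 1.62 in C13 and 2.86 in WT. LRE (LORELEI), a membrane-anchored protein known from pollen tube reception, had -1.09 and rose by 1.12 in C13 and 2.19 in WT. The last 5 rose in both lines, by less in C13. Tested further on, the difference in response exceeded its threshold in AGL44 and LRE and not in MGDC, SQD2 and EXPA10.

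PAP1 (MYB75), the MYB factor that switches on anthocyanin synthesis, had -1.24 (standard error at most 0.18), with no response listed in C13, against a rise of 0.79 in WT. Against the 0 h control PAP1 fell by 0.75 in C13 and had no response listed in WT. Unnamed loci among the lowest were AT1G48100 at -1.44, AT4G02170 at -1.3, AT4G13800 at -1.23, AT1G23110 at -1.07 and AT5G62210 at -0.97. All of these rose in each line, by between 0.70 and 1.71 in C13 and between 1.65 and 3.13 in WT. Responses of opposite sign were seen in AT1G23205 (-1.60, standard error at most 0.30), which fell by 0.98 in C13 and rose by 0.88 in WT. For AT2G07732 (-1.08) a fall of 0.65 was listed in C13 and a rise of 0.41 in WT. None of its 3 probe rows gave both responses, so these values come from different rows and cannot be set against each other. AT1G40087 (-1.35, standard error at most 0.20) also stood lower in C13 outside hypoxia, as described further on.

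**Figure D2:**
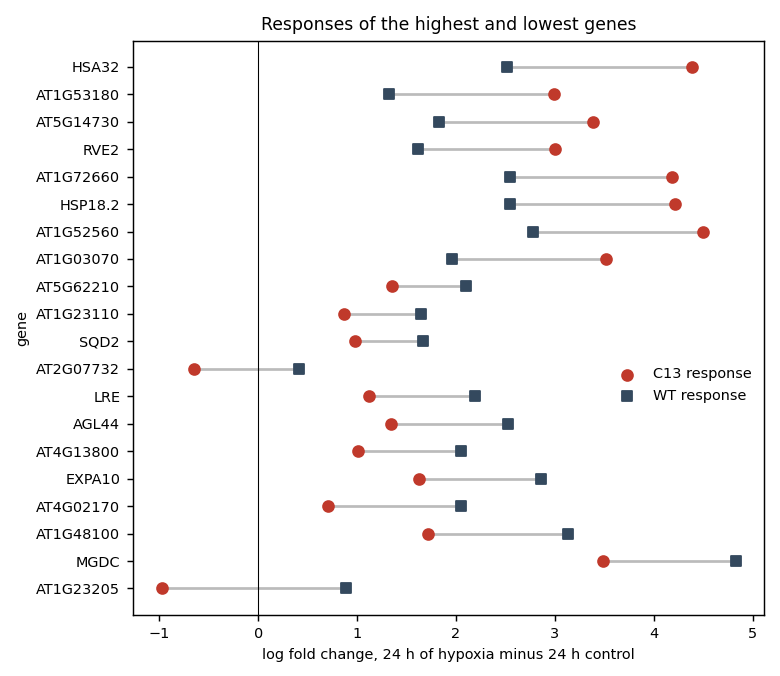
Responses to 24 h of hypoxia against the 24 h control (x axis, log fold change) in C13 (circles) and WT (squares) for the genes among the 15 highest and 15 lowest that were listed in both lines (y axis, ordered by C13 minus WT). C13 lies right of WT in the upper 8 genes, such as HSA32 with 4.39 and 2.52, and left of WT in the lower 12, such as MGDC with 3.49 and 4.83. Choosing the genes by C13 minus WT after hypoxia favours this order. For AT2G07732 the C13 and WT values come from different probe rows.

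Gene lists were then read against the share of all named genes that were listed (2.95%). Hypoxia itself was strong in both lines: 34.6% of genes were listed as responding to 24 h of hypoxia in C13, 17.5% rising and 17.1% falling, and 35.8% in WT, 18.8% rising and 17% falling. Of 39 measured genes of fermentation and the hypoxia core, 36 rose in C13 and 35 in WT, and 0 were listed in C13 minus WT. ADH1, the alcohol dehydrogenase that ends ethanol fermentation, rose by 4.08 in C13 and 3.99 in WT. PDC1, the pyruvate decarboxylase that opens it, rose by 4.78 in C13 and 5.21 in WT. HB1, the plant's own stress haemoglobin, rose by 4.11 in C13 and 4.15 in WT, and GLB3, a truncated haemoglobin, by 2.21 in C13 and 2.5 in WT. HB2, another plant haemoglobin, was listed only against the 0 h control, with 1.31 in C13 and 1.78 in WT. None of these 5 was listed in C13 minus WT. Of the nitrate reductases, NIA1 fell by 1.06 in C13 and 1.01 in WT, and NIA2 was listed only against the 0 h control, where it fell by 0.87 in C13 and 1.12 in WT. HOT5 (GSNOR1), which breaks down S-nitrosoglutathione, has no row under its name in the table used here and was not analysed. AOX1A, the alternative oxidase, rose by 1.24 in C13 and was not listed in WT, and its C13 minus WT value was not listed.

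**Figure D3:**
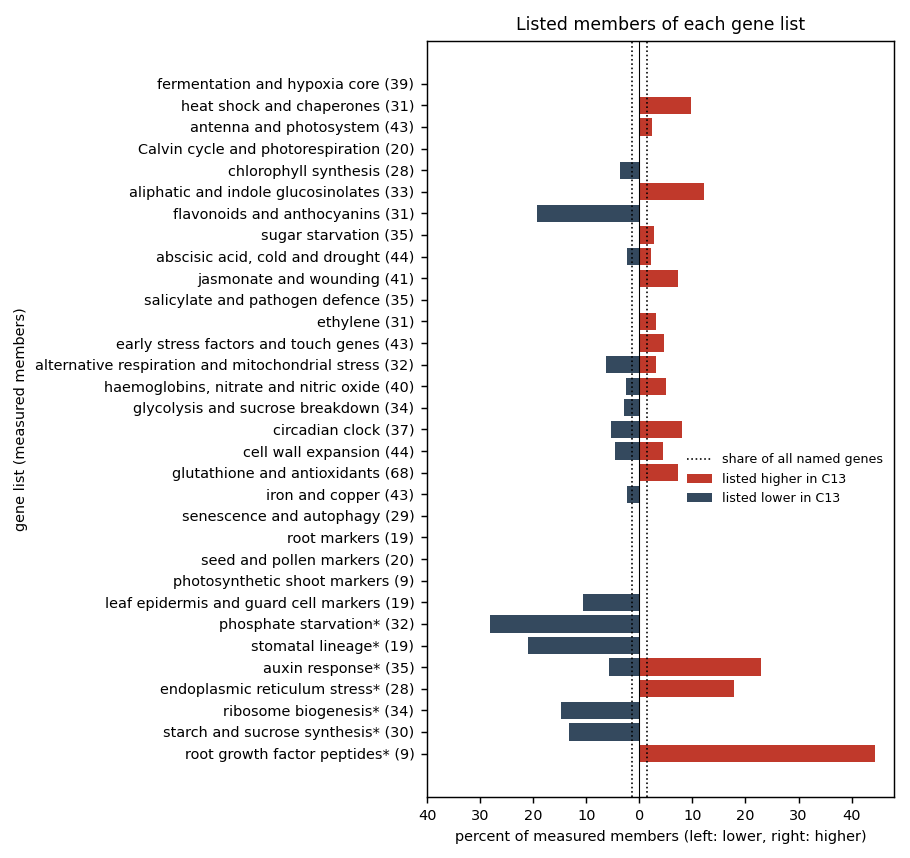
Percent of the measured members of each gene list (y axis, measured members in parentheses) listed higher in C13 (bars to the right) or lower in C13 (bars to the left) than in WT at 24 h of hypoxia; dotted lines mark the share of all named genes, 1.47% in each direction, and asterisks mark lists chosen after values were seen. Flavonoids and anthocyanins hold 6 of 31 members on the lower side, and glutathione and antioxidants 5 of 68 on the higher side.

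Among 31 measured heat shock genes, 29 rose in C13 and 29 in WT, and 3 stood higher in C13 (9.68%), with 0 lower. They were HSP18.2, described above, HSFA3 at 0.78 and HSFA1E at 0.58, transcription factors that switch on heat shock genes. HSFA3 rose by 1.56 in C13 and 0.87 in WT, and HSFA1E by 1.67 in C13 and 0.94 in WT. HSFA2, the main amplifier of the response, and HSP101, the chaperone that dissolves protein aggregates, were not listed between the lines. HSFA2 rose by 4.80 in C13 and 4.66 in WT and HSP101 by 4.34 in C13 and 3.52 in WT. Before treatment, at 0 h, 5 of the 31 genes stood lower in C13 and 0 higher, where 1.74% of all named genes were listed lower. They were the chaperones HSP70 at -1.89 and HSP90.1 at -1.51, ROF2 at -1.37 and ROF1 at -0.69, immunophilins of the heat response, and MBF1C, a heat-induced coactivator, at -0.80.

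Of 68 genes of glutathione and antioxidants, 5 stood higher in C13 (7.35%) and 0 lower. All 5 were tau class glutathione transferases, which join glutathione to reactive and foreign compounds. GSTU5 led with 1.32, followed by GSTU2 at 1.02, GSTU1 at 1.00, GSTU20 at 0.99 and GSTU7 at 0.80. GSTU2 rose by 2.14 in C13 and 1.11 in WT and GSTU7 by 2.3 in C13 and 1.60 in WT. GSTU20 had no response listed in C13 and fell by 1.47 in WT. GSTU1, GSTU2, GSTU5 and GSTU7 lie in 1 run of neighbouring genes, whose other named members GSTU3, GSTU4 and GSTU6 were not listed. Near-identical copies can share probe signal, so these values may not be independent.

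Of 33 glucosinolate genes, 4 stood higher in C13 (12.1%) and 0 lower. Glucosinolates are sulfur-rich defence compounds of the cabbage family. MAM1, which lengthens the side chain of methionine, was 0.94 higher, and IMD1, an isopropylmalate dehydrogenase of the same pathway, was 0.81 higher. Neither had a response listed in C13, while in WT hypoxia lowered MAM1 by 1.46 and IMD1 by 1.26. MYB51, a regulator of indole glucosinolates, was 0.67 higher, and CYP81F2, which modifies them, 0.65 higher. Across the list 8 members were listed as falling in C13 and 25 in WT, of 33 measured. Of all named genes 17.1% were listed as falling in C13 and 17% in WT. A fall that is not listed in C13 is not shown to be absent. In the 7 members in which both responses could be set against each other, C13 fell less than WT in every case, with a median difference of 0.60, and 0 of the 7 exceeded its threshold.

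Flavonoid genes went the other way: 6 of 31 stood lower in C13 (19.4%) and 0 higher. Beside PAP1 these were its close relative MYB90 at -0.63, DFR, the reductase that commits flavonoids to anthocyanin, at -0.65, 4CL3, a coumarate ligase, at -0.55, and the flavonoid glycosyltransferases UGT78D1 and UGT78D2 at -0.48 each. In C13 14 members rose and 3 fell, and in WT 18 rose and 2 fell. DFR and MYB90 had no response listed in C13, and in WT DFR rose by 1.00 and MYB90 by 0.80. 4CL3 rose by 1.67 in C13 and 2.18 in WT, and UGT78D2 by 1.16 in C13 and 1.3 in WT. At 0 h also 6 of the 31 genes stood lower in C13 and 0 higher, where 1.74% of all named genes were listed lower. TT4, the chalcone synthase that opens the pathway, had -1.22 there and F3H, a later enzyme of it, -1.09, while of the 6 only UGT78D2 was listed again at 24 h of hypoxia.

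The circadian clock list had members on both sides, 3 of 37 higher and 2 lower (13.5% listed). Beside RVE2, EPR1 (RVE7), a relative of the morning genes, was 0.71 higher and FT, the mobile signal for flowering, 0.68 higher. PRR9, a morning repressor of the clock, had -0.68, and LCL1 (RVE4), an activator of evening genes, -0.43. EPR1 rose by 1.67 in C13 and 0.84 in WT, and PRR9 by 0.63 in C13 and 0.97 in WT. Of 44 cell wall genes, EXPA8 at 1.01 and EXPA6 at 0.56 stood higher and EXPA10 and EXPA15, at -0.95, lower (9.09% listed). All 4 are expansins. EXPA8, EXPA6 and EXPA15 had no response listed in C13 against the 24 h control. In WT EXPA8 fell by 1.92 and EXPA6 by 1.02, while EXPA15 rose by 1.53.

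Of 41 jasmonate genes 3 stood higher (7.32%) and 0 lower. TIFY7 (JAZ9), a repressor of jasmonate signalling, was 0.96 higher and fell by 1.17 in C13 and 2.72 in WT. AOC4, an enzyme of jasmonate synthesis, was 0.55 higher and JAZ12 0.50 higher. Of 44 genes of abscisic acid, cold and drought 2 were listed (4.55%). RD26, a stress-induced NAC factor, was 0.96 higher, and HAB1, a phosphatase that dampens abscisic acid signalling, had -0.38. RD26 had no response listed in C13 and fell by 1.68 in WT. Of 31 ethylene genes EIL1, a transcription factor that carries the ethylene signal, was 0.43 higher (3.23%). Of 43 early stress and touch genes, the calmodulin-like CML11 was 1.06 and WRKY26 0.87 higher (4.65%). CML11 rose by 2.00 in C13 and 0.89 in WT. No member was listed among 35 salicylate and pathogen defence genes.

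In energy metabolism, 1 of 32 genes of alternative respiration and mitochondrial stress stood higher and 2 lower (9.38% listed). AT2G21640 was 1.17 higher, with responses of 3.01 in C13 and 1.68 in WT. AT2G04050, with responses of 1.31 in C13 and 1.93 in WT, had -0.74. NDA1, an alternative NAD(P)H dehydrogenase of mitochondria, had -0.72. Against the 24 h control it had no response listed in C13 and rose by 0.76 in WT. Against the 0 h control it fell in both lines, by 1.58 in C13 and 1.34 in WT. Of 40 genes of haemoglobins, nitrate and nitric oxide, UPM1, which makes sirohaem for nitrite and sulfite reductase, was 0.61 higher and GDH3, a glutamate dehydrogenase, 0.35 higher. ASN3, an asparagine synthetase, had -0.30 (7.5% of this list listed). UGP1, which makes UDP-glucose, was listed at -0.41 among 34 glycolysis and sucrose genes (2.94%). KING1, a regulatory subunit of the SnRK1 energy sensor, was 0.59 higher among 35 sugar starvation genes (2.86%). The shares of the glycolysis and sugar starvation lists are near that of all named genes.

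Of 43 antenna and photosystem genes, 31 fell in C13 and 26 in WT, and PSBP-2, a photosystem II protein, alone was listed between the lines, at 0.39 (2.33%). Of 28 chlorophyll synthesis genes 23 fell in each line, and HEMA1, which commits glutamate to tetrapyrrole synthesis, had -0.80, with falls of 1.76 in C13 and 0.81 in WT (3.57% listed). These shares are near that of all named genes. Of 20 Calvin cycle and photorespiration genes 11 fell in each line and 0 were listed between them. No member was listed among 29 senescence and autophagy genes. Of 43 iron and copper genes only ILR3, a bHLH factor of iron homeostasis, was listed, at -0.31 (2.33%). Of the markers of cells a harvest could hold, 0 of 19 root, 0 of 20 seed and pollen and 0 of 9 photosynthetic shoot markers were listed between the lines. Of 19 epidermis and guard cell markers 2 were lower (10.5%), SPCH and EPF2, which belong to the stomatal lineage.

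The lists that follow, up to the tests of the responses, were drawn up after values of this column had been seen, so their counts describe and support nothing. Of all named genes 1.47% were listed higher and 1.47% lower at 24 h of hypoxia. Of 32 phosphate starvation genes 9 were lower in C13 and 0 higher, with a median of -0.90. Beside AT4, MGDC and SQD2 they held AT5G20790 at -0.93, MGD2, a second galactolipid synthase, at -0.90, PLDP2, a phospholipase D, at -0.74, PAP16, a purple acid phosphatase, at -0.74, G3Pp1, a glycerol-3-phosphate permease homologue, at -0.65, and PHF1, which brings phosphate transporters to the membrane, at -0.49. MGD2 rose by 1.62 in C13 and 2.48 in WT, PHF1 by 1.21 in C13 and 1.66 in WT. Other genes of the same response were not listed between the lines: SPX1, a phosphate sensor, rose by 2.28 in C13 and 2.73 in WT, and SQD1, the first enzyme of sulfolipid synthesis, by 3.01 in C13 and 2.45 in WT. The stomatal lineage had 4 of 19 lower, namely EPF2 at -0.58, TMM at -0.56, BASL at -0.54 and SPCH at -0.49. SPCH starts the lineage, BASL polarises its divisions, and EPF2 with the receptor TMM limits its density.

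Of 35 auxin response genes 8 were higher and 2 lower. DFL1, which conjugates auxin to amino acids, was 1.03 higher, IAA2 0.98, IAA19 0.77 and WES1 (GH3.5) 0.73. The lower ones were TAR1 at -0.49 and YUC6 at -0.37, enzymes of auxin synthesis. IAA19 fell by 0.55 in C13 and 1.59 in WT, and WES1 by 0.60 in C13 and 1.54 in WT. At 0 h 5 of the list were higher in C13 and 0 lower, against 1.04% of all named genes higher, IAA19 at 0.55 and WES1 at 0.60 among them. Of 9 root growth factor peptide genes 4 were higher, RGF9 at 0.94, RGF6 at 0.82, RGF5 at 0.59 and RGF7 at 0.32. Of 28 genes of endoplasmic reticulum stress 5 were higher and 0 lower: LFG4, BI1, the cell death suppressor Bax inhibitor, at 0.97, UTR3, a UDP-sugar transporter, at 0.78, and DER1 and DER2.1, which help export misfolded proteins, at 0.67 and 0.58. BI1 rose by 2.13 in C13 and 1.12 in WT, and UTR3 by 2.2 in C13 and 1.07 in WT. On the lower side were 5 of 34 ribosome biogenesis genes, between -0.64 and -0.40, and 4 of 30 of starch and sucrose synthesis, among them APL3, a subunit of the enzyme that makes ADP-glucose, at -0.75 and SPS1F, a sucrose phosphate synthase, at -0.56. In the ribosome list 30 members rose in C13 and 33 in WT. At 0 h 21 of the 34 stood lower in C13, against 1.74% of all named genes lower. NRPA2, a subunit of RNA polymerase I, stood lower by most, at -0.94.

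Whether the lines responded differently to hypoxia was tested on the difference of their responses against the 24 h controls, C13 minus WT. It could be computed for 7040 genes, and its threshold was the upper bound of its standard error times the multiple that a two-sided p of 0.01 needs on the normal distribution. It was exceeded by 74 genes (1.05%), 52 with the larger value in C13 and 22 with the larger value in WT (0.739% and 0.312%). Because the bound lies above the standard error, the test is stricter than its nominal p. That nominal p alone would give a share near 1.05% with no difference in any gene. No adjustment was made for the 7040 genes, so some of the 74 may be false calls. Of these 74 genes 59 were also listed in C13 minus WT at 24 h of hypoxia, a comparison that holds the same shoots. The differences with the largest size were 1.87 for HSA32 (standard error at most 0.69) and -1.86 for AT1G23205 (0.42). They were followed by AT1G53180 at 1.66, LFG4 at 1.57, TIFY7 at 1.55, EGY3, a chloroplast protease homologue, at 1.52, COR413IM1, a cold-induced protein of the chloroplast inner envelope, at -1.39, RD28, a water channel, at 1.36, AT4G02170 at -1.34 and AT3G44190 at 1.27. COR413IM1 fell by 2.43 in C13 and 1.03 in WT and was the only one of the 10 not listed in C13 minus WT. AGL44 at -1.18, LRE at -1.07 and the list members IAA19, WES1, BI1, DER1 and UTR3 also exceeded their thresholds, while HSP18.2 and MGDC did not.

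Against the 0 h controls, 105 of 7608 genes exceeded the threshold. Of the 74 genes above, 59 could be computed that way and 19 exceeded it again, in the same direction, HSA32, LFG4, AT3G44190, AGL44 and LRE among them. AT1G53180 and TIFY7 did not. Only the controls changed, while the C13 and WT shoots after 24 h of hypoxia stayed the same. That favours the same direction, so the overlap is not an independent check.

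In the heat shock and hypoxia core lists no gene exceeded the threshold, but the sign of the difference leaned to 1 side. Among heat shock genes the response was larger in C13 for 27 of 29, with a median difference of 0.58, and the list had the 5 members named above that stood lower in C13 at 0 h. These responses are against the 24 h controls, so the levels at 0 h do not enter them. In the 24 h controls C13 minus WT was -0.36 for HSP18.2, -0.15 for HSFA1E and 0.09 for HSFA3. The part of the 24 h control levels in the larger responses was not tested. Among fermentation and hypoxia core genes it was smaller in C13 for 27 of 35, with a median of -0.43. Over all 7040 genes the median was -0.01, with 3399 positive and 3641 negative. Members of a list share the same shoots, so that these counts describe the 4 groups and carry no test.

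**Figure D4:**
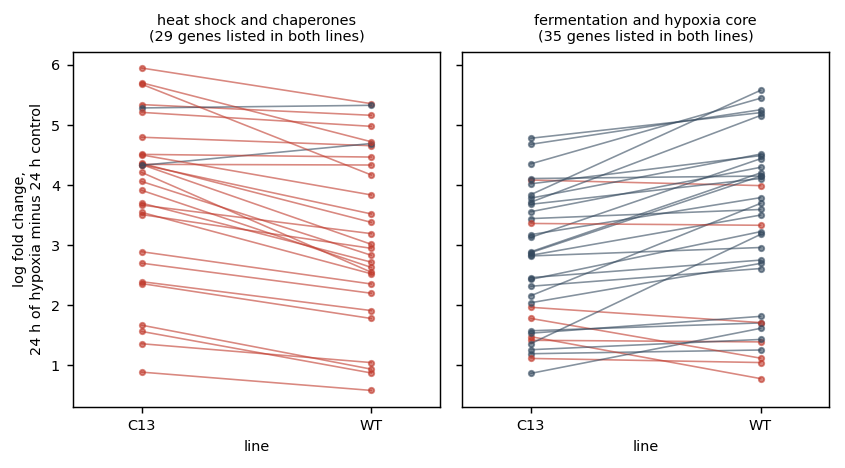
Response to 24 h of hypoxia against the 24 h control (y axis, log fold change) of each gene in C13 (left) and WT (right), for 29 heat shock genes and 35 fermentation and hypoxia core genes listed in both lines; red lines mark a larger value in C13 and dark lines a larger value in WT. Most heat shock lines slope down toward WT, with HSP18.2 at 4.21 and 2.55, and most hypoxia core lines slope up, with PDC1 at 4.78 and 5.21.

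The table holds no column of C13 minus WT in the 24 h controls, and it was computed where the listed values allowed. This gave 819 genes, of which 19 stood higher and 18 lower beyond the same multiple of the bound (4.52%). A value needed a listed difference between C13 and WT in another condition, so this share does not hold for all genes. For 317 of the 722 genes listed at 24 h of hypoxia a value could be had, and of these 2 exceeded the threshold in the same direction and 1 in the opposite one. In 4 of the 317 the value came from another probe row of the gene than the one listed after hypoxia. The median size of the difference between the lines in these 317 genes was 0.51 after hypoxia and 0.11 in the 24 h controls. The 317 had been chosen by the value after hypoxia, so the larger size there is in part the choice itself. HSA32 had -0.25 in the controls (standard error at most 0.49), AGL44 -0.03 (0.25), AT4G02170 0.04 (0.27) and SQD2 -0.38 (0.23). Larger ones among the genes with the largest response differences were TIFY7 at -0.59 (0.26), RD28 at -0.45 (0.31), EGY3 at -0.38 (0.36) and LFG4 at -0.34 (0.37). AT1G23205 had 0.26 (0.30). Such differences between the controls are part of the response differences above.

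Other conditions gave C13 minus WT from plants other than those of the 24 h hypoxia column. The 0 h control listed 682 genes (2.78%), 2 h of hypoxia 397 (1.62%), 2 h of DETA 639 (2.61%) and 24 h of DETA 721 (2.94%). Of the 722 genes of 24 h hypoxia, 80 were listed at 0 h, 69 of them in the same direction, which is 9.56% of the 722 and 10.1% of the 682. At 2 h of hypoxia 37 were listed and 29 in the same direction, 4.02% of the 722 and 7.3% of the 397. After DETA 47 were listed at 2 h, 39 in the same direction, 5.4% of the 722 and 6.1% of the 639, and 66 at 24 h, 51 in the same direction, 7.06% of the 722 and 7.07% of the 721. In none of the 4 were 553 genes listed (76.6%), and 40 were listed somewhere with the opposite sign. Each of the 4 listed at most 2.94% of all named genes, so most genes of any random set would be absent from all 4. The 553 are therefore not shown to differ only after 24 h of hypoxia.

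A small set of genes separated C13 from WT in most conditions. In the same direction in all 5 conditions were 4 genes. PGL2, a lactonase of the oxidative pentose phosphate pathway, stood higher in C13 by 0.95 at 0 h, 0.83 at 2 h of hypoxia, 1.19 at 24 h of hypoxia, 1.11 at 2 h of DETA and 0.71 at 24 h of DETA. AT3G19780 was higher by 0.53, 0.43, 0.44, 0.43 and 0.49 in the same order. AT1G40087 had -0.90, -1.24, -1.35, -0.93 and -1.06. XPB2, a helicase of transcription and DNA repair, had -0.47, -0.54, -0.64, -0.55 and -0.76.

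Another 12 genes were listed in 4 conditions and 16 in 3. TBL26 was 1.2 higher at 0 h, 0.78 at 2 h of DETA and 1.67 at 24 h of hypoxia, all from 1 of its 2 probe rows. In the other conditions the rows disagreed in sign, with 1.12 and -0.60 at 2 h of hypoxia and 0.98 and -0.49 at 24 h of DETA. The row that was negative there gave 0.0084 in the 24 h controls (standard error at most 0.17), and the other row gave no value for them. J8, a chaperone-type J-domain protein of chloroplasts, was 0.67 higher at 0 h, 0.74 at 2 h of DETA and 0.95 at 24 h of hypoxia. SNRK2.2, a kinase of abscisic acid signalling, was 0.65 higher at 0 h, 0.42 and 0.60 after 2 and 24 h of DETA, and 0.34 at 24 h of hypoxia. On the lower side, VTC2, which commits sugar to vitamin C, had -1.02 at 0 h, -0.77 at 2 h and -0.79 at 24 h of hypoxia and -0.98 at 24 h of DETA. UPL4, a ubiquitin ligase, had -0.65 at 0 h, -0.75 at 2 h and -0.74 at 24 h of hypoxia and -0.79 at 2 h of DETA. The locus AT2G27420 had -0.71 at 0 h, -1.2 at 2 h and -0.80 at 24 h of hypoxia, and -1.72 at 24 h of DETA. UGT78D2, the flavonoid glycosyltransferase named above, had -0.47 at 0 h, -0.40 at 2 h of hypoxia and -0.48 at 24 h of DETA, and thus stood lower in C13 without hypoxia too. The cellulose synthase CESA5, the helicase STRS1, SPS2, a prenyl synthase for plastoquinone, PDX1L4, ACS10 and NDA1 were lower as well, between -0.72 and -0.40 at 24 h of hypoxia.

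**Figure D5:**
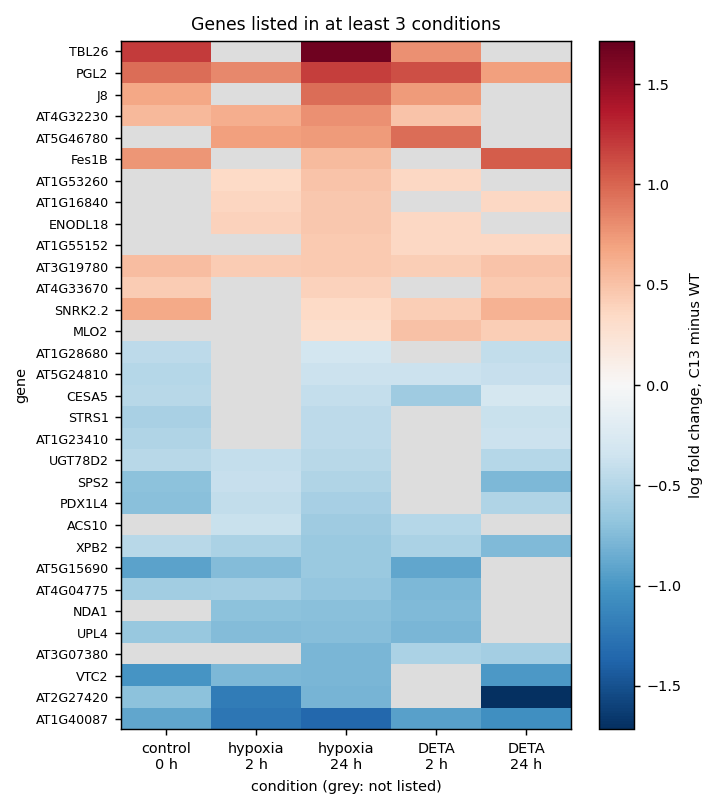
Log fold change, C13 minus WT (colour, red higher and blue lower in C13), for the genes (y axis) listed in the same direction at 24 h of hypoxia and in at least 2 of 4 other conditions (x axis); grey marks values that were not listed or, in TBL26, rows of both signs. PGL2, AT3G19780, XPB2 and AT1G40087 have no grey cell, and TBL26 at 24 h of hypoxia reaches 1.67.

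The line with VHb in mitochondria, Mt62, listed 1055 genes against the same WT shoots (4.3%), and since the WT shoots are shared the 2 columns were only set side by side. HSA32 was higher than WT by 1.62 in C13 and 1.36 in Mt62, TBL26 by 1.67 in C13 and 2.61 in Mt62, RD26 by 0.96 in C13 and 1.09 in Mt62, and CML11 by 1.06 in both lines. PAP1 had -1.24 in C13 and -1.08 in Mt62, DFR -0.65 in C13 and -0.62 in Mt62, and AT1G40087 -1.35 in C13 and -1.43 in Mt62. AHL28, HSP18.2, the GSTU genes, AT4, MGDC, SQD2 and AGL44 were listed in C13 and not in Mt62, which does not show that the lines differed in them. The difference C13 minus Mt62, which does not use WT, could be computed for 413 genes, and 39 exceeded that multiple of its bound (9.44%). It could be computed only where both lines had a listed difference from WT in some condition, so this share does not hold for all genes. Among the 722 genes 169 had a value and 11 exceeded it. TBL26 stood 0.93 lower in C13 than in Mt62, that is -0.93 (standard error at most 0.28). AT4G02170 had -1.52 (0.27). ASP4, an aspartate aminotransferase, was 1.42 higher in C13 (0.23), with 0.64 in C13 and -0.77 in Mt62 against WT. PAP1 at -0.16 (0.18) and HSA32 at 0.26 (0.49) did not exceed their thresholds, which does not show that the lines were alike in them.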

How the data were processed

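The authors hybridised RNA to Agilent arrays with 3 dyes per field, applied quantile normalization and a modified ComBat, and tested with an empirical Bayes t-test, per the series design text. The authors deposited log fold changes, handled here as log2 values although no source used here names the base, with p above 0.01 set to null. Signal over background and values per channel were not used here, and the number of channels limits the precision.

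Probes were named by accession (24525 rows) or symbol (1839), 2 symbols were kept as given, and 8192 of 34558 rows have no gene; TAIR10.1 supplied names only. A gene was called where at least 1 row was listed and the listed rows agreed in sign; the mean of those rows is its value, which for the 1677 genes with several rows may differ between columns. No test of the C13 minus WT column was added to the authors' own. Columns closed in loops to within 2e-09, so unlisted differences were computed where a path of listed values existed. The smallest listed size of a row, divided by the normal quantile of a two-sided p of 0.01 and scaled by channel numbers, bounds its standard deviation from above. This takes a pooled variance, which held in 98.6% of 4473 rows with both kinds of values. Alternatives were complete listing of a gene's rows, rows in place of genes, sizes of at least 1, a Benjamini-Hochberg adjustment over all rows at 0.05 with p from the bound at 60 degrees of freedom, the 0 h control, a threshold at a p of 0.05 and the largest row. The procedures were tested on simulated data. Python 3.11.15, numpy 2.4.6, pandas 2.3.3 and SciPy 1.17.1 were used.

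Members, lists and tests were chosen with earlier results of these data known, and 7 of the 32 lists after values of this column were seen. Named were the 15 highest and 15 lowest genes, up to 5 listed members per list, genes listed in the same direction in at least 3 of 5 conditions, the 10 largest response differences, and ADH1, PDC1, HB1, HB2, GLB3, NIA1, NIA2, HOT5 (no row), AOX1A, HSP101 and HSFA2. Members of the later lists, SPX1, SQD1 and ASP4 were chosen after their values were seen. Sequences and promoters were not used here.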

Additional observations from a re-analysis of the deposited data

Results flagged for a closer look

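For 10 genes the response to 24 h of hypoxia differed between C13 and WT by more than the upper bound of its standard error allows at a two-sided p of 0.01, with the largest sizes among 74 such genes. The threshold was not adjusted for the 7040 genes computed. The difference, C13 minus WT, was 1.87 for HSA32, 1.66 for AT1G53180, 1.57 for LFG4 (AT1G03070), 1.55 for TIFY7, 1.52 for EGY3, 1.36 for RD28 and 1.27 for AT3G44190. It was -1.86 for AT1G23205, -1.39 for COR413IM1 and -1.34 for AT4G02170.

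The lowest value of the whole C13 minus WT column at 24 h of hypoxia, -2.13, belonged to a probe row without a gene name, outside the gene counts. In all 169 listed rows had no gene, 82 higher and 87 lower in C13. Of the 60 rows with names of control spots 0 were listed in this column.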

How the results depend on the processing

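The counts of genes higher and lower in C13 than in WT were 361 each. Requiring every row of a gene to be listed gave 322 and 335, and counting rows gave 451 and 453. Only sizes of at least 1 left 36 higher and 14 lower, and an adjustment over all rows with p from the bound left 18 higher and 24 lower. Both reductions follow from the stricter rule itself. The adjustment can pass only rows for which another column lists a smaller value, so a gene that failed it may differ as clearly. The 48 listed members of the first 25 lists became 9 at a size of at least 1 and 3 after adjustment, GSTU5, PAP1 and EPF2. The 74 genes with a different response became 105 with the 0 h control, 76 with the largest row and 255 with a threshold at a nominal p of 0.05 in place of 0.01, which is the looser rule's own effect. Of 104 listed genes named by rule, 3 had several listed rows, and taking the row with the largest size moved none of them by more than its bound of 1 standard deviation. No paired analysis was possible because the table holds differences between groups and no value per replicate, and for the same reason no replicate could be left out and no slide or dye tested. The bound is wide for strongly induced genes, at 2.13 in PDC1 and 1.75 in ADH1, so that differences in response of that size could not be shown there.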

Other observations

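Some genes that passed an adjustment over all rows, with p from the bound, belong to no list and were picked after their values were seen. A gene can pass only if another column lists a smaller value for its row, so passing does not rank the differences. CXXS1, a thioredoxin-like protein, was 0.97 higher in C13 at 24 h of hypoxia (standard error at most 0.15), and 0.51 higher in C13 than in Mt62 (0.15). PYL7, a receptor of abscisic acid, was 1.19 higher (0.27), and RBL13, a rhomboid-like membrane protein, 1.06 higher (0.18). TGA1, a transcription factor of defence and nitrate responses, was 0.58 higher (0.13). ACL and MES3, neighbouring genes of the methyl esterase family, were 0.65 and 0.64 higher (0.14 each), and as close relatives they may share probe signal. On the lower side WOX1, a homeobox factor of leaf blade growth, had -0.70 (0.16) and RAPTOR2, a partner of the growth kinase TOR, -0.40 (0.09).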
